A study of Mus musculus with 6 samples.

Results

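The R-spondin module comprised 9 genes, found by symbol in the deposited expression table of 49315 Ensembl genes: the secreted ligands Rspo1, Rspo2, Rspo3 and Rspo4, the receptors Lgr4, Lgr5 and Lgr6, and the membrane ubiquitin ligases Znrf3 and Rnf43. All 9 were present, and 7 of them reached the level needed for testing. The libraries came from mouse embryonic fibroblasts, mixed mesenchymal cells grown out of E13.5 embryos. One group carried 1 copy of the R206H allele of Acvr1 (Acvr1R206H/+, here R206H), the allele behind fibrodysplasia ossificans progressiva (FOP), which turns muscle and connective tissue into bone, and the other was wild type (Acvr1+/+, here WT). Each group had 3 libraries, called biological replicates by the submitters, of passage 0 cells kept 2 days in serum-containing medium, with no added ligand or drug named in the labels. The labels give neither the strain nor the sex of the embryos, nor whether libraries shared a litter, so p-values measure the spread between these libraries.

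R-spondins are secreted proteins that amplify Wnt signalling without being Wnts themselves. ZNRF3 and RNF43 sit in the plasma membrane and tag Frizzled receptors and the co-receptor LRP6 for removal. An R-spondin bridges LGR4, LGR5 or LGR6 to one of these ligases and takes the ligase off the surface, so that more Wnt receptor remains there. RNF43, ZNRF3 and LGR5 are themselves induced by beta-catenin in many tissues, which closes a feedback loop. In the embryo, Rspo2 and Rspo3 act in limb, craniofacial and vascular development. In Xenopus, Rspo2 can also act through Znrf3 on the BMP receptor Bmpr1a.

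Promoters are shown for the receptor genes Lgr4 and Lgr6, which had log2 values of opposite sign, and for the ligand gene Rspo1. The RefSeq promoter table (build GRCm38.p6) held 5 of the 9 genes, namely Rspo1, Rspo4, Lgr4, Lgr6 and Rnf43, and had no entry for Rspo2, Rspo3, Lgr5 and Znrf3. Each sequence runs 5′ to 3′ on the gene's own strand, with 250 bases before the annotated start and 50 after it. They lie at chr2:109917397-109917696 (plus strand, Lgr4), chr1:135105227-135105526 (minus strand, Lgr6) and chr4:124986180-124986479 (plus strand, Rspo1). Capitals mark matches on either strand to CCAAT or to the GC-rich SMAD-associated sequence GGCGCC.
Lgr4: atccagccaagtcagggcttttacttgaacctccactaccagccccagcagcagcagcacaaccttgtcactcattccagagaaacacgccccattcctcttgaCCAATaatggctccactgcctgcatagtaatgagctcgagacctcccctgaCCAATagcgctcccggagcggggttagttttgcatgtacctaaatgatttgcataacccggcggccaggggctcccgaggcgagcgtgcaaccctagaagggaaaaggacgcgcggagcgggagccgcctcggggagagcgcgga
Lgr6: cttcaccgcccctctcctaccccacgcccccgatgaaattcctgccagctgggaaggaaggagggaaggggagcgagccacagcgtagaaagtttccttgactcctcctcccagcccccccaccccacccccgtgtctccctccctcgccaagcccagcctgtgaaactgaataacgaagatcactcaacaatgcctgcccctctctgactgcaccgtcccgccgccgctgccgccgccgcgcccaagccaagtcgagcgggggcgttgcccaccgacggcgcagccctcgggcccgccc
Rspo1: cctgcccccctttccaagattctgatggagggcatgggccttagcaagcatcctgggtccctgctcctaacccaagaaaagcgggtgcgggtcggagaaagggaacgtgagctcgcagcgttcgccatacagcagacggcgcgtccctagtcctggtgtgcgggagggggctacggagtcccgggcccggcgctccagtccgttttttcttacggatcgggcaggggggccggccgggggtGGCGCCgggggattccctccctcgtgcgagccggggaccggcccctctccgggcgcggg

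The Lgr4 promoter held 2 CCAAT boxes, beginning 146 and 95 bases before the start, and 11.7% of the 32851 promoters in the table held 2 or more. The Lgr6 promoter held none of the motifs searched. Rspo1 had 1 GGCGCC, beginning 9 bases before its start, as did 11.9% of promoters at least once. The TCF/LEF sequences CTTTGTT and CTTTGAA, found in 5.85% and 5.14% of promoters, were in none of the windows of the 5 genes, nor was TATAAA, found in 13.6%. None of these motifs overlapped another in the 3 windows shown. GC content was 58.3% in the Lgr4 window, 67.7% in the Lgr6 window and 69% in the Rspo1 window, against a median of 52.7% over all promoters.

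Levels are given as TPM, transcripts per 1000000, which scale reads by gene length and library. The libraries held an estimated 17800000 to 21700000 reads in R206H and 17500000 to 24600000 in WT. On the first principal component of all genes tested, R206H libraries lay at 7.24 to 39.5 and WT libraries at -29.1 to -18, with R206H library 3 at the far end, and WT library 1 stood apart on the second, at 34.1 against -16.3 to 4.84 for the others. Fibroblast markers were present in every library: the summed level of 10 of them was 8912 to 11425 TPM in R206H and 5634 to 7419 TPM in WT, with a median log2 change of 0.89. With limma none of the 10 passed, and a count-based fit (limma voom on reads rebuilt from TPM) called 6 of them higher (Col1a1, Col1a2, Col3a1, Pdgfra, Pdgfrb and Thy1). Over all genes tested, at an adjusted p of 0.05, limma called 1.26% higher and 0.79% lower, and voom 4.61% higher and 4.08% lower. Summed epithelial markers (12 genes) were at 178.4 to 368.1 TPM in R206H and 513.6 to 554.8 TPM in WT, with 2 of 9 tested lower with limma and 5 with voom. Summed mesothelial markers (8 genes) were at 211.6 to 410.2 TPM in R206H and 429.2 to 499.3 TPM in WT, with 1 of 7 tested lower, Msln (log2 change -1.37). The mesothelial list's median log2 change was -0.08: Krt19 had -0.62, while Wt1 and Upk3b had 0.17 and 0.28. Krt19 is also in the epithelial list and was the largest member of both sums in every library. It had 230.3, 185.5 and 143.0 TPM in R206H libraries and 217.7, 327.2 and 312.1 TPM in WT libraries. Without Krt19 the mesothelial sums of the genotypes overlap. Summed neural crest and glial markers (6 genes) were at 20.9 to 30.2 TPM in R206H and 43.5 to 52.2 TPM in WT, with 2 of 5 tested lower with limma and 4 with voom. Cartilage, skeletal muscle, endothelial and macrophage markers were also present, with sums that overlapped between the genotypes and no call with limma or voom. Cartilage sums were 227.0 to 338.3 TPM in R206H and 150.8 to 342.4 TPM in WT (median log2 change -0.85). Skeletal muscle sums were 131.8 to 253.5 TPM in R206H and 187.8 to 195.0 TPM in WT (median -0.11). No marker of these lists was at 0 in all libraries. The part of cell composition in the results below was not tested, and in bulk RNA fewer cells of a type and less RNA per cell cannot be told apart.

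Rspo2 and Lgr4 rose in R206H fibroblasts, by 2.84 and 2.06 times in mean TPM, and they were the 2 genes of the 7 tested that passed. The other R-spondins with measurable levels, Rspo1 and Rspo3, had means 2.10 and 1.72 times as high without passing. Lgr6 was the one tested gene with a negative value, and Znrf3 was nearly level, with a sign that turned with the scaling. None of the 7 passed as lower. Of all 14818 genes tested, 1.26% were called higher and 0.79% lower with limma at a Benjamini-Hochberg adjusted p of 0.05. The median log2 change of the 7 was 0.71, against 0.02 over all genes tested, and 6 of the 7 had values above 0, as did 53.6% of all genes. The R206H libraries lay wholly above the WT libraries for 4 of the 7 (Rspo1, Rspo2, Lgr4 and Rnf43), and for 17.9% of all genes tested. At an unadjusted p under 0.05, 3 of the 7 were higher (Rspo1, Rspo2 and Lgr4), beside 14.4% of all genes.

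**Figure D1:**
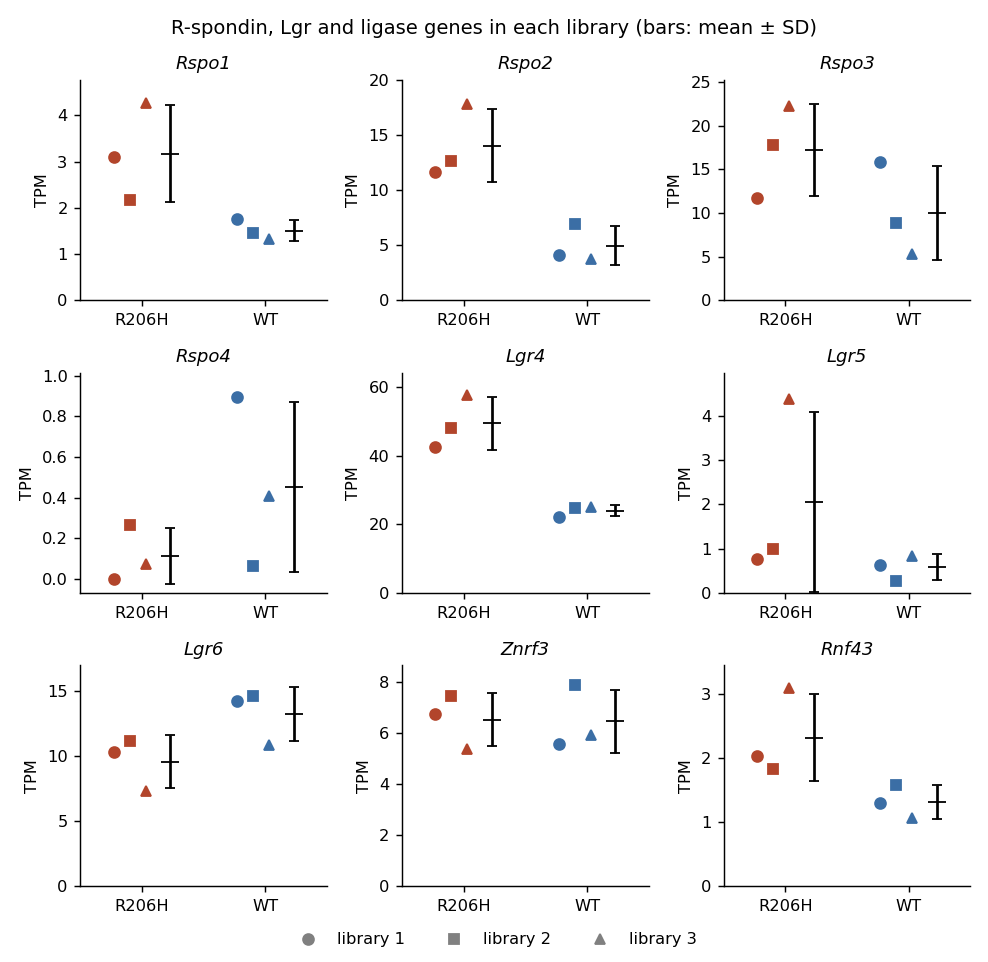
Level of each of the 9 genes (vertical axes, TPM, each from 0 or just below it) in R206H libraries (left, red) and WT libraries (right, blue); circles, squares and triangles are libraries 1, 2 and 3, and black bars are mean ± SD. Rspo1, Rspo2, Lgr4 and Rnf43 show R206H points wholly above WT points, while Znrf3 points are intermingled and Lgr5 is raised in R206H library 3 alone.

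Among the ligands, Rspo2 (ENSMUSG00000051920, chromosome 15, 43020794 to 43170826, minus strand, GRCm38) had 11.6, 12.7 and 17.8 TPM in R206H libraries 1, 2 and 3, against 4.08, 6.98 and 3.77 TPM in WT libraries 1, 2 and 3. The lowest R206H library exceeded the highest WT library. Means were 14.1 ± 3.32 TPM in R206H and 4.95 ± 1.77 TPM in WT (SD, n = 3 each), a log2 change of 1.36 on the log2(TPM + 1) scale (SE 0.238, limma adjusted p = 0.0476). Of the genes tested, 99.5% had a lower log2 change. The count of reads behind it was at least 764 in the R206H libraries together and 299 in the WT libraries, at an inferred gene length. The call rests close to the threshold: the adjusted p was 0.0405 without R206H library 1, 0.152 without R206H library 2, 0.102 without R206H library 3, and 0.0645, 0.0996 and 0.166 without WT libraries 1, 2 and 3, and the log2 change stayed between 1.18 and 1.59 in these fits.

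Rspo3 (ENSMUSG00000019880, chromosome 10, 29452416 to 29535867, minus strand) had the highest mean of the 4 ligand genes in both genotypes. It was measured at 11.7, 17.7 and 22.2 TPM in R206H libraries 1, 2 and 3 and at 15.8, 8.80 and 5.30 TPM in WT libraries 1, 2 and 3. The groups overlapped, since WT library 1 exceeded R206H library 1. Its log2 value of 0.80 (SE 0.371) did not pass (limma adjusted p = 0.225). Without WT library 1, which stood apart on the second principal component, the value was 1.17, without WT library 3 it was 0.46 and without R206H library 3 it was 0.60, and none of these passed (adjusted p = 0.0835, 0.492 and 0.473).

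Rspo1 (ENSMUSG00000028871, chromosome 4, 124986430 to 125009099, plus strand), known for its role in ovary formation, was weakly expressed. Its levels were 3.09, 2.17 and 4.27 TPM in R206H libraries and 1.75, 1.45 and 1.33 TPM in WT libraries, without overlap. With 20 to 47 reads per R206H library and 16 to 19 per WT library, counting error alone was wide: the exact Poisson 95% interval was 1.32 to 3.35 TPM in R206H library 2 and 1.00 to 2.84 TPM in WT library 1. Such intervals cover counting error only. The log2 value was 0.71 (SE 0.227) and did not pass (limma adjusted p = 0.116).

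Rspo4, which in humans is known for nail formation, was at the limit of detection. It had 0, 3 and 1 reads in R206H libraries 1, 2 and 3, or 0, 0.266 and 0.0742 TPM, against 10, 1 and 6 reads in WT libraries 1, 2 and 3, or 0.894, 0.0623 and 0.407 TPM. The 0 in R206H library 1 allows a level of up to 0.216 TPM (3 reads). The groups overlapped, Rspo4 stayed under the test's minimum level, and no direction can be read from so few reads.

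Summed over the 4 ligands, R-spondin transcripts reached 26.4, 32.8 and 44.4 TPM in R206H libraries 1, 2 and 3, against 22.6, 17.3 and 10.8 TPM in WT libraries 1, 2 and 3. The sums did not overlap, and the mean was 2.04 times as high in R206H. Rspo2 and Rspo3 made up most of each sum. Rspo2 held 38.6% to 44.1% of it in R206H and 18.1% to 40.4% in WT, where the 18.1% was that of WT library 1. The ratio of Rspo2 to Rspo3 was 0.716 to 0.996 in R206H and 0.258 to 0.793 in WT, so the mix of ligands overlapped between the genotypes.

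Among the receptors, Lgr4 (ENSMUSG00000050199, chromosome 2, 109917647 to 110014257, plus strand), the most broadly expressed of the 3 in mammalian tissues, was the most abundant gene of the module in every library. It had 42.5, 48.1 and 57.7 TPM in R206H libraries 1, 2 and 3, against 22.2, 24.7 and 25.2 TPM in WT libraries 1, 2 and 3. The WT libraries lay close together and every R206H library was far above them. Means were 49.4 ± 7.66 TPM in R206H and 24.03 ± 1.58 TPM in WT (SD, n = 3 each), a log2 change of 1.00 (SE 0.116, limma adjusted p = 0.0344). Of the genes tested, 98.5% had a lower log2 change. Its reads, 617 to 1930 per library, were the most of the 9 genes. The adjusted p was 0.0188 without R206H library 1 and 0.0431 without WT library 1, and the call was lost without R206H library 2 or 3 (0.152 and 0.0613) and without WT library 2 or 3 (0.101 and 0.121), at log2 changes of 0.89 to 1.1.

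Lgr6 (ENSMUSG00000042793, chromosome 1, 134983301 to 135105276, minus strand), a marker of hair follicle and other stem cells, had values in the opposite direction. It was at 10.3, 11.2 and 7.29 TPM in R206H libraries and 14.3, 14.6 and 10.8 TPM in WT libraries. The groups overlapped only between R206H library 2 and WT library 3. The log2 value was -0.44 (SE 0.179), which did not pass (limma adjusted p = 0.179), and it was -0.27 without R206H library 3 and -0.57 without WT library 3.

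Lgr5 (ENSMUSG00000020140, chromosome 10, 115450311 to 115587780, minus strand), the intestinal stem cell marker, was low except in 1 library. It had 0.766, 1.00 and 4.39 TPM in R206H libraries 1, 2 and 3, and 0.640, 0.274 and 0.846 TPM in WT libraries 1, 2 and 3. The 4.39 TPM of R206H library 3 rested on 256 reads, with an exact Poisson 95% interval of 3.87 to 4.96 TPM, while the other libraries had 19 to 54 reads. Mean R206H was 3.50 times mean WT with all libraries and 1.51 times without R206H library 3, and the groups overlapped. Lgr5 was under the minimum level for testing, and in a fit with no minimum its log2 value was 0.77 (limma adjusted p = 0.472).

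The receptor mix differed in its proportions between these libraries of the 2 genotypes. Lgr4 made up 79.3%, 79.8% and 83.2% of summed Lgr TPM in R206H libraries 1, 2 and 3, against 59.8%, 62.4% and 68.3% in WT libraries 1, 2 and 3. Lgr6 made up 19.2%, 18.5% and 10.5% in R206H and 38.5%, 36.9% and 29.4% in WT. Both shares were without overlap, while Lgr6 TPM itself overlapped. Lgr5 held only 0.691% to 6.32% of the sum, so the 2 shares and the ratio of Lgr4 to Lgr6 are largely the same observation. The sum of the 3 receptor genes was 53.6 to 69.4 TPM in R206H and 36.9 to 39.6 TPM in WT. The ratio of Lgr4 to Lgr6 averaged 5.45 ± 2.13 in R206H and 1.86 ± 0.41 in WT (SD, n = 3 each), and was 4.13, 4.32 and 7.91 in the R206H libraries. These sums and shares were not tested.

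**Figure D2:**
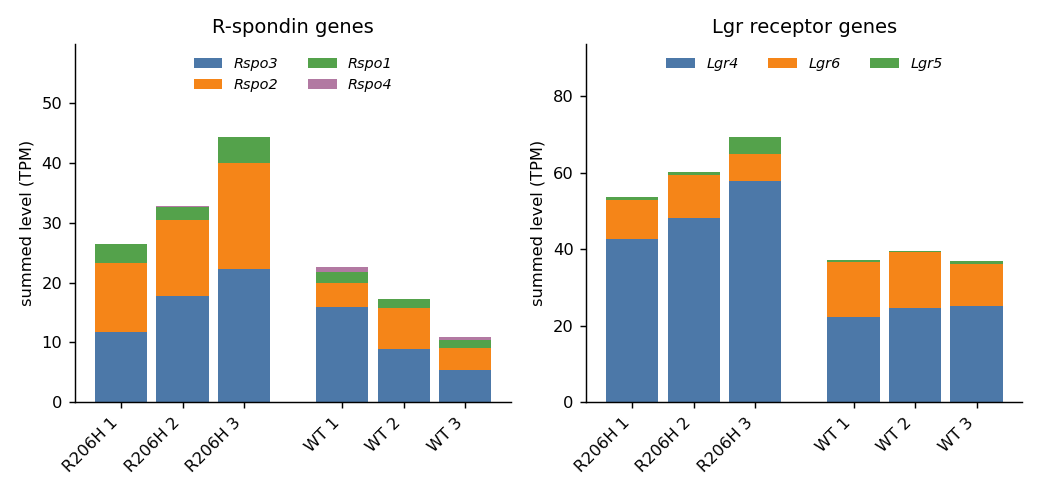
Stacked levels (vertical axes, TPM) of the 4 R-spondin genes (left panel) and the 3 Lgr genes (right panel) in each R206H library and then each WT library; each colour is 1 gene. R-spondin sums run from 26.4 to 44.4 TPM in R206H and 10.8 to 22.6 TPM in WT, and Lgr6 makes up a smaller share of the receptor bar in all R206H libraries (10.5% to 19.2%) than in WT libraries (29.4% to 38.5%).

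Neither of the ligase genes passed, and the difference between them was not tested. Znrf3 (ENSMUSG00000041961, chromosome 11, 5276324 to 5444847, minus strand) had 6.76, 7.45 and 5.39 TPM in R206H libraries 1, 2 and 3 and 5.56, 7.88 and 5.95 TPM in WT libraries 1, 2 and 3. The genotypes were intermingled. The log2 value was 0.02 (SE 0.168, limma adjusted p = 0.961), and its sign turned with the scaling, to -0.01 with median-of-ratios factors and -0.04 in the count-based fit. Rnf43 (ENSMUSG00000034177, chromosome 11, 87662722 to 87735539, plus strand) had 2.03, 1.82 and 3.08 TPM in R206H libraries and 1.29, 1.58 and 1.05 TPM in WT libraries, without overlap. Its log2 value of 0.51 (SE 0.217) did not pass (limma adjusted p = 0.195), and its reads numbered 40 to 115 per library.

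Rnf43 was the smaller part of the ligase pair in all libraries. Its share of summed Znrf3 and Rnf43 TPM was 19.7% to 36.4% in R206H, with the highest in library 3, and 15.1% to 18.9% in WT. The ligase sum itself overlapped, at 8.48 to 9.27 TPM in R206H and 6.85 to 9.46 TPM in WT. Set against that sum, R-spondin transcripts stood at 3.00, 3.54 and 5.23 times in R206H libraries 1, 2 and 3 and at 3.29, 1.83 and 1.54 times in WT libraries 1, 2 and 3, with overlap through WT library 1. Receptor transcripts stood at 6.10 to 8.18 times the ligase sum in R206H and 4.18 to 5.42 times in WT, without overlap.

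**Figure D3:**
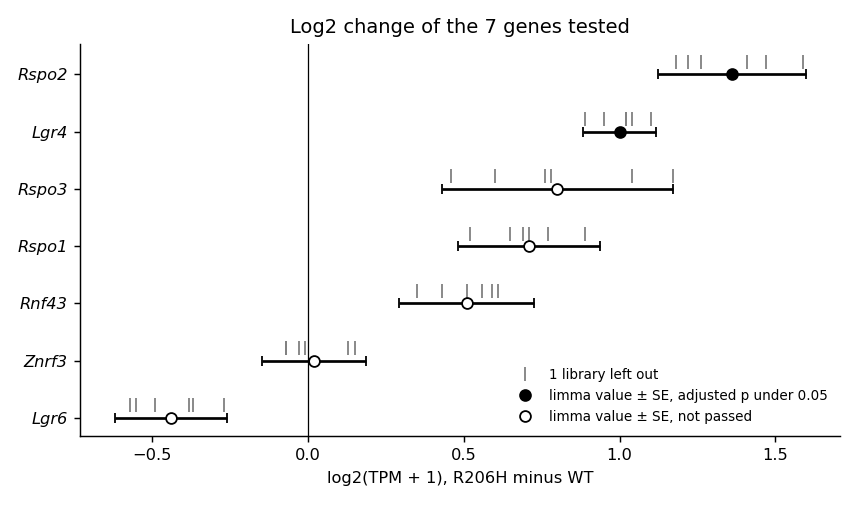
Log2(TPM + 1) in R206H minus WT (horizontal axis) for the 7 genes tested, with circles for the limma value, bars for its SE, filled where the adjusted p was under 0.05, and grey ticks for fits with 1 library left out. Rspo2 and Lgr4 are filled, at 1.36 and 1.00, and every tick keeps the sign of its gene except for Znrf3, whose ticks run from -0.07 to 0.15.

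R206H library 3 had the highest level of Rspo1, Rspo2, Rspo3, Lgr4, Lgr5 and Rnf43 and the lowest of Lgr6 and Znrf3 among the R206H libraries. The same library was the farthest along the first principal component and had the highest summed fibroblast markers, at 11425 TPM. It had the lowest summed epithelial and mesothelial markers, at 178.4 and 211.6 TPM, sums that share Krt19. Without R206H library 3 the mean ratio of R206H to WT was 2.46 for Rspo2, 1.89 for Lgr4, 1.74 for Rspo1, 1.47 for Rspo3 and 1.47 for Rnf43. With all libraries the ratios were 2.84, 2.06, 2.10, 1.72 and 1.77.

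By level among the genes tested, the module spanned a wide range in each genotype. In R206H, mean Lgr4 exceeded 75.7% of tested genes, Rspo3 51% and Rspo2 46.3%, and in WT the corresponding figures were 60%, 39.5% and 27.5%. In R206H libraries the order of mean TPM was Lgr4, Rspo3, Rspo2, Lgr6, Znrf3, Rspo1, Rnf43, Lgr5 and Rspo4. Lgr4 stood clear of the next gene in every library. The ranges of Rspo3 and Rspo2 overlapped, Lgr6 lay below both and overlapped Znrf3, and Rspo1, Rnf43 and Lgr5 overlapped one another below Znrf3. In WT libraries the order was Lgr4, Lgr6, Rspo3, Znrf3, Rspo2, Rspo1, Rnf43, Lgr5 and Rspo4. There Lgr6, at 10.8 to 14.6 TPM, lay above Rspo2 in every library and overlapped Rspo3, and Znrf3 overlapped Rspo3 and Rspo2.

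Genes overlapping the members in the annotation carried little signal. Rspo1, Rspo3, Rspo4, Lgr5 and Rnf43 each overlap another annotated gene, and the highest level of any of these in any library was 0.52 TPM, for Gm12930, antisense to Rspo1. Since the strand setting is not given in the sources used here, reads from opposite strands cannot be told apart. For Rspo4 the antisense gene Rspo4os reached at most 0.166 TPM, with a mean of 0.0677 TPM over all libraries. Rspo4 itself reached 0.894 TPM, with a mean of 0.284 TPM.

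The profiles closest to each member over the 6 libraries, by root-mean-square difference of centred log2(TPM + 1), were those of Pcp4l1 (0.144) and the fibroblast surface gene Thy1 (0.174) for Rspo2. Pcp4l1 was called higher, at 116 ± 27.5 TPM in R206H and 46.6 ± 6.49 TPM in WT (SD, n = 3 each, limma adjusted p = 0.0417), while Thy1 did not pass (adjusted p = 0.0501). For Lgr4 they were Elavl2 (0.056), an RNA-binding protein gene, and Snai1 (0.0715), a mesenchymal transcription factor gene, both called higher (limma adjusted p = 0.0476 and 0.0362). For Rspo3 they were Tmem176a (0.134) and Tspan11 (0.14), for Rspo1 Tnfrsf19 (0.0871) and Vill (0.0887), for Rnf43 Arhgap33 (0.061) and Zc4h2 (0.0708), for Lgr6 Fam174b (0.0509) and Zfp422-ps (0.0515), and for Znrf3 Syde2 (0.0465). None of these 9 passed the test. All neighbours were picked for profiles like the member's in the same libraries. Their calls therefore tend to follow the member's and are no separate evidence. Pcp4l1, Elavl2 and Snai1 passed without R206H library 1, and none of the 3 without R206H library 2 or 3 or WT library 2 or 3, while without WT library 1 Elavl2 did not pass (adjusted p = 0.058). A flat profile such as that of Znrf3, with an SD of 0.197 over libraries, has many near neighbours.

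The targets of the ligases, the Frizzled genes and Lrp5 and Lrp6, had no call among 12 tested with limma, though 6 had a p under 0.05 before adjustment, as did 26.1% of all genes in either direction, and a median log2 change of 0.19. Limma voom called 2 of the 12 higher, Fzd1 and Fzd2 (adjusted p = 0.0304 and 0.0273), where it called 4.61% of all genes higher, and it also called Rspo2 and Lgr4 (adjusted p = 0.0216 and 0.0114). Fzd2 had 129.7, 135.6 and 171.6 TPM in R206H libraries and 109.8, 93.1 and 86.3 TPM in WT libraries, and did not pass with limma (log2 value 0.59, adjusted p = 0.0618). Fzd1 had 93.1, 101.9 and 135.7 TPM in R206H and 78.7, 67.1 and 63.6 TPM in WT, with a log2 value of 0.64 (adjusted p = 0.0668). Fzd1 and Fzd2 were each without overlap between the genotypes. Neither Fzd4 (log2 value 0.46) nor Fzd8 (0.30) passed.

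Of 12 cofactors of the module tested, limma called 3 higher and none lower, beside 1.26% and 0.79% of all genes. Of the 12, 7 had an unadjusted p under 0.05 (26.1% of all genes), and the median log2 change was 0.32. The cofactors comprised heparan sulfate proteoglycans that bind R-spondins or Wnts, the deubiquitinase gene Usp42, and the Lgr4 partners Iqgap1 and Ndp. Gpc3, encoding the glypican mutated in an overgrowth syndrome in humans, had 175.5, 239.1 and 261.0 TPM in R206H libraries and 127.1, 101.9 and 110.6 TPM in WT libraries (log2 change 0.97, SE 0.154, limma adjusted p = 0.0462). The glypican gene Gpc6 averaged 33.8 ± 3.41 TPM in R206H and 23.0 ± 0.86 TPM in WT (SD, n = 3 each, limma adjusted p = 0.0476). The syndecan gene Sdc2 averaged 120.7 ± 8.79 TPM in R206H and 91.0 ± 4.37 TPM in WT (SD, n = 3 each, limma adjusted p = 0.0476). The libraries of the 2 genotypes did not overlap for any of these, and for 17.9% of all genes tested R206H lay wholly above WT. Also without overlap, but not passing, were Sdc1, Ndp, Gpc4 and Gpc2, at log2 values of 0.44, 0.88, 0.24 and 0.47 (limma adjusted p = 0.0668, 0.0923, 0.115 and 0.174). With voom 4 of the 12 were called higher, Sdc1 (adjusted p = 0.035) beside the 3, where voom called 4.61% of all genes higher.

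Beta-catenin feedback targets, the group to which Rnf43, Znrf3 and Lgr5 also belong, had 1 call among 8 tested. Over all genes tested, limma called 1.26% higher. At an unadjusted p under 0.05 the list had 2 of 8, beside 26.1% of all genes. Notum, which encodes the secreted enzyme that inactivates Wnts, had 8.38, 8.54 and 13.7 TPM in R206H libraries and 2.73, 3.50 and 3.54 TPM in WT libraries (log2 change 1.37, SE 0.203, limma adjusted p = 0.0454). Axin2, the most general target of the pathway, had 8.45, 8.69 and 10.8 TPM in R206H and 9.24, 5.91 and 5.66 TPM in WT, with overlap (log2 value 0.40, adjusted p = 0.237). Not passing were also Nkd1, Dkk1 and Apcdd1, at log2 values of 0.45, 0.47 and -0.22. The list's median was 0.35, and Sp5 and Dkk4 were below the minimum level. Notum, Gpc3, Gpc6 and Sdc2 passed without R206H library 1, and none of these 4 without R206H library 2, R206H library 3, WT library 2 or WT library 3. Without WT library 1 only Gpc3 of the 4 passed (adjusted p = 0.0468, and 0.0503, 0.0507 and 0.0645 for Notum, Gpc6 and Sdc2).

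Inside the receiving cell, the Dishevelled and destruction complex genes had no call among 10 tested with limma or voom, 3 at an unadjusted p under 0.05, a share near the 26.1% of all genes, and a median log2 change of 0.04. Btrc, Dvl3 and Ctnnb1, which encodes beta-catenin, had log2 values of 0.29, 0.18 and 0.16, and the kinase gene Gsk3a had -0.11. Among Wnt ligands and their export genes none of 14 tested passed with limma, and 8 had an unadjusted p under 0.05, beside 26.1% of all genes. Voom called Wnt4, Wnt5a and Wls higher and Wnt7a lower, where it called 4.61% of all genes higher and 4.08% lower. Wnt16 had 4.24, 7.75 and 17.6 TPM in R206H libraries and 2.09, 2.07 and 1.70 TPM in WT libraries (log2 value 1.69, limma adjusted p = 0.0737). Wnt7a had 4.58, 0.662 and 1.11 TPM in R206H and 8.29, 6.38 and 9.17 TPM in WT (log2 value -1.72, limma adjusted p = 0.0755). Wnt5a and Wls had log2 values of 0.32 and 0.29.

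**Figure D4:**
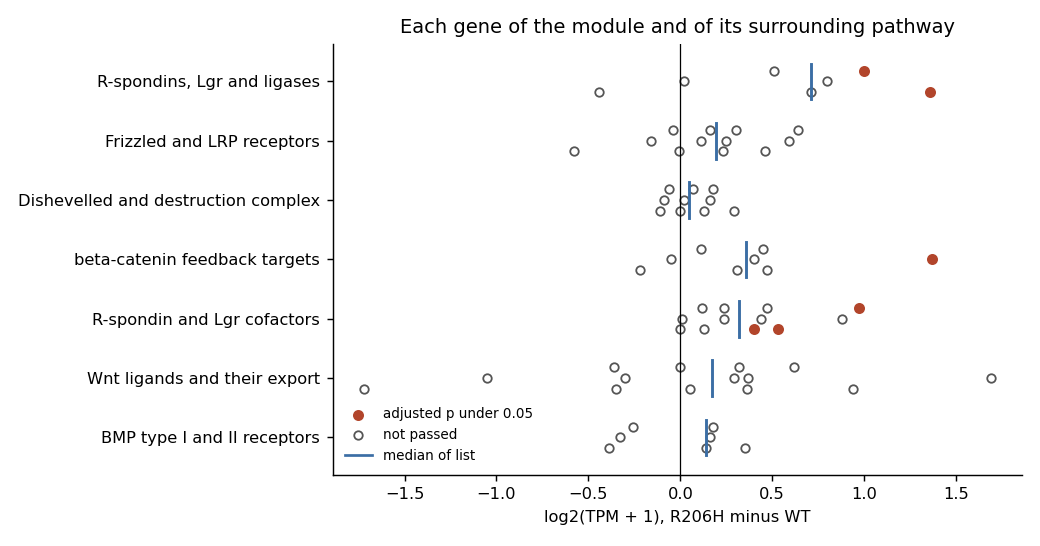
Log2(TPM + 1) in R206H minus WT (horizontal axis) for each tested gene of the module (top row) and of 6 surrounding lists; filled red circles had an adjusted p under 0.05, open circles did not pass, and blue lines are list medians. Filled circles are Rspo2 and Lgr4 in the module, Notum among feedback targets, and Gpc3, Gpc6 and Sdc2 among cofactors, all to the right of 0.

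BMP receptors were examined because Rspo2 acts on one of them in Xenopus and because Acvr1 carries the allele. Of 7 tested, limma called none. Before adjustment 3 had a p under 0.05, beside 26.1% of all genes. Voom called 1 higher, Acvr1, where it called 4.61% of all genes higher. Acvr1 had 43.9, 47.3 and 42.0 TPM in R206H libraries and 35.7, 34.6 and 33.7 TPM in WT libraries (log2 value 0.35, limma adjusted p = 0.0511). The level of Acvr1 does not check the genotype, since the allele differs by a single amino acid. Bmpr1a had 53.98, 59.4 and 57.9 TPM in R206H and 52.7, 48.1 and 49.9 TPM in WT, without overlap (log2 value 0.18, limma adjusted p = 0.145). Neither Acvrl1 (log2 value -0.26) nor Bmpr1b (-0.39) passed.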

How the data were processed

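RNA was sequenced from 6 libraries of mouse embryonic fibroblasts after ribosomal RNA depletion, as paired reads of 150 bp, per the labels' protocols. The authors deposited 1 table of TPM for Ensembl genes. The submitters' processing notes name mm10 and GRCm38 as builds, and as tools STAR, Trimmomatic, Subread, featureCounts and DESeq2, with no role or version. For gene lengths, annotation release and strand, the setting is not given in the sources used here.

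The 14818 genes that reached TPM 1 in 3 libraries entered limma 3.58.1 (R 4.3.3) as log2(TPM + 1) (mean-variance trend, no covariate, two-sided, Benjamini-Hochberg adjustment over all genes tested at 0.05). This scale understates changes of weakly expressed genes. Reads were rebuilt from TPM with exon-union lengths of GENCODE release M21, which matched 49056 identifiers. With them, 91.1% to 91.5% of values under 100 reads were whole within 0.05, and so were 8 of the 9 genes described. For Rspo2 the M21 length of 5112 nt gave no whole reads. The shortest length tried that did, 3324 nt, was inferred from the values. Multiples of it would also give whole reads, so the Rspo2 counts are the smallest that fit. Rebuilt reads served for intervals and for limma voom only. Depth estimates and TPM comparisons between genes rest on these lengths. The limma fit was tested on simulated data, with the same spread setting for every gene and independent libraries. That test cannot show how well the calls hold in these libraries. Alternatives were other pseudocounts, filters, scalings, no trend, library weights, the replicate number as a block and each library left out.

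The 9 genes and all lists were chosen with earlier results of these data known. Named were the 9 genes, the members of each list that passed and otherwise up to 4 with the smallest p, and the 2 nearest profiles of each tested gene, of which 1 is not reported here. Analyses used Python 3.11.15, pandas 2.3.3 and matplotlib 3.10.9.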

Additional observations from a re-analysis of the deposited data

How the results depend on the processing

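The number of genes past the threshold was 303 and depended strongly on the fit. It was 129 with a pseudocount of 0.1, 2 without a filter, 587 with a filter at TPM 5, 27 without the trend, 1906 with library weights, 1284 with limma voom on rebuilt reads, and 0 to 729 with 1 library left out, with 292 without WT library 1 and 0 without R206H library 2 or 3 (3048 and 2765 at an unadjusted p under 0.05). Of the module, 2 genes passed in the main fit, 1 with a pseudocount of 0.1 (Lgr4), 0 without a filter or without the trend (3 and 4 at an unadjusted p under 0.05), and 0 to 2 with 1 library left out (2 to 5 at an unadjusted p under 0.05). Over 16 alternatives Lgr4 kept its call in 9 and Rspo2 in 7, with log2 values of 0.89 to 1.1 and 0.94 to 1.59, and adjusted p of 0.0106 to 0.152 and 0.0211 to 0.166. Rspo1, Rspo3, Rnf43 and Lgr6 kept their sign and did not pass in any alternative computed for them. Znrf3 changed sign with median-of-ratios scaling (-0.01), with voom (-0.04) and between fits with 1 library left out (-0.07 to 0.15). With the replicate number as a block, 0 genes passed with limma (3301 at an unadjusted p under 0.05), and 0 of the module (4 at that p). Deviations of same-numbered libraries correlated at 0.018, 0.0599 and -0.0283, so the numbers were not taken as a pairing, and not every library correlated best with its own number. The cause of these differences was not tested. Depth limits Rspo4, with 0 to 10 reads per library, and Rspo1, with 16 to 47.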
